A study of Rattus norvegicus with 64 samples.

Results

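The 10 genes described here are markers and working parts of astrocytes. Slc1a2 and Slc1a3 encode the plasma membrane glutamate transporters GLT-1 and GLAST, and Glul encodes glutamine synthetase. Kcnj10 encodes the inward rectifier potassium channel Kir4.1 and Aqp4 the water channel aquaporin-4. Gja1 and Gjb6 encode the gap junction proteins connexin 43 and connexin 30. Gfap encodes the glial intermediate filament protein, S100b a calcium-binding protein and Aldh1l1 a folate enzyme used to mark astrocytes. They were picked by gene symbol, and they are 10 of the 32552 gene rows in the count tables. All 10 passed the filter on low counts in every comparison. In the RefSeq table for GRCr8, all protein-coding, they lie as follows: Slc1a2 (ENSRNOG00000005479) on chromosome 3, Slc1a3 (ENSRNOG00000016163) on chromosome 2, Glul (ENSRNOG00000049560) on chromosome 13, Kcnj10 (ENSRNOG00000007705) on chromosome 13, Aqp4 (ENSRNOG00000016043) on chromosome 18. The other 5 are Gja1 (ENSRNOG00000000805) on chromosome 20, Gjb6 (ENSRNOG00000022116) on chromosome 15, Gfap (ENSRNOG00000002919) on chromosome 10, S100b (ENSRNOG00000001295) on chromosome 20 and Aldh1l1 (ENSRNOG00000047023) on chromosome 4.

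The libraries came from hippocampus and cortex of 32 rats labelled ApoE4 or ApoE3, the human apolipoprotein E isoforms studied as risk variants in brain ageing. Doxorubicin, an anthracycline chemotherapy drug, was given at 2 mg/kg per week over 4 weeks, beginning at 5 weeks of age, with brains collected 5 to 6 weeks after dosing ended. The other rats are labelled PBS. The 4 groups of rats were ApoE4 doxorubicin, ApoE4 PBS, ApoE3 doxorubicin and ApoE3 PBS, each with 4 females and 4 males, and each rat gave 1 library per region, so that there were 8 groups of 8 libraries and 64 libraries in all. All rats carry an ApoE label, and no group without one enters here. The labels give no strain, no account of how the alleles were introduced and no statement on pooling. The RNA protocol in the labels speaks of frozen cells, whereas the tissue field gives brain regions. Rat numbers run in unbroken blocks of genotype, sex and treatment, so a batch that followed those blocks cannot be told apart from them.

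Astrocytes clear glutamate from synapses through the Slc1a2 and Slc1a3 transporters, and glutamine synthetase turns it into glutamine that is returned to neurons. They take up the potassium that active neurons release, through Kir4.1, and their endfeet on blood vessels carry aquaporin-4. Connexins 43 and 30 couple astrocytes into a network, and Gfap protein builds the filaments that increase in reactive astrocytes.

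Totals per library ran from 10836181 to 20397553 counts, and spike-in rows took 0.932% to 2.44% of them. Levels below are given as CPM, a gene's count relative to the library total, scaled by TMM over the 64 libraries. Because they are not divided by transcript length, they are compared between samples and not between genes. The tissue labels matched their markers: Prox1, a dentate granule cell gene, read 67.8 to 114 CPM in hippocampus and 10.3 to 18.8 CPM in cortex, and Tbr1, a gene of cortical projection neurons, 16.5 to 36.1 CPM in hippocampus and 64.4 to 98.0 CPM in cortex. A count row named for the ApoE3 donor sequence read 1204 to 3172 CPM across all 64 libraries, ApoE4 rats included, so it gives no check of genotype. Choroid plexus genes, a sign of neighbouring tissue, summed to 2.61 CPM in the lowest cortical library and 12278 CPM in the highest hippocampal one.

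The promoters of 4 members are shown because the results turn on how these genes varied across rats. Slc1a3 and Gja1 varied together in both regions. In hippocampus no correlation of Slc1a2 with another member passed a permutation test, and Gjb6 varied with meningeal genes. Each promoter is the RefSeq sequence (GRCr8) from 250 bases before to 50 after the first listed start. The Slc1a2 window lies at chr3:109459859-109460158 on the plus strand, that of Slc1a3 at chr2:59557759-59558058 on the minus strand, that of Gja1 at chr20:36302314-36302613 on the plus strand and that of Gjb6 at chr15:35410089-35410388 on the minus strand. Capitals mark matches on either strand to an NFI half-site (TTGGC), a SOX motif (AACAAT), a STAT motif (TTCNNNGAA) or a GC box (GGGCGG).
Slc1a2 promoter: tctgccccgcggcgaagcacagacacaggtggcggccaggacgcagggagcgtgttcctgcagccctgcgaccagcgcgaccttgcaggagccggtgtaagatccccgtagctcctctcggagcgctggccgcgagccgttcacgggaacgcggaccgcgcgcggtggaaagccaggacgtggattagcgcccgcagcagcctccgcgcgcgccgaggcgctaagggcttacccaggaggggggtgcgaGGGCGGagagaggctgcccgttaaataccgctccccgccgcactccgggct
Slc1a3 promoter: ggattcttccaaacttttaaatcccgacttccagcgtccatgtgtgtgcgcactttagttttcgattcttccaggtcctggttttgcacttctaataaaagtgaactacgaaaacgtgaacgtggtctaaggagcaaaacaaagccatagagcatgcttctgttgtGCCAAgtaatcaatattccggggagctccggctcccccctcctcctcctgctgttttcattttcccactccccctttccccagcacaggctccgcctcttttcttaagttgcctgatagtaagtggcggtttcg
Gja1 promoter: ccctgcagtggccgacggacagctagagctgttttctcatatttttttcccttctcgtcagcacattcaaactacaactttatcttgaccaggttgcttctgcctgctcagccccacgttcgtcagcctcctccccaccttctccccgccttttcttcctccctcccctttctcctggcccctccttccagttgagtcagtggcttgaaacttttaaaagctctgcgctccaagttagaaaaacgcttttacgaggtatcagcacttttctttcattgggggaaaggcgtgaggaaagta
Gjb6 promoter: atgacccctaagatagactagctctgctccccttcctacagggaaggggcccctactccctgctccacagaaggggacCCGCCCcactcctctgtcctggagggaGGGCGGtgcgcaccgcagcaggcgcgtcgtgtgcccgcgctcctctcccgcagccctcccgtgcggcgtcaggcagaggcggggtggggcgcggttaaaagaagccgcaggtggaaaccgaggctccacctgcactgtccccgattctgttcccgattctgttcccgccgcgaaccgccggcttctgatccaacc
GC content was 71% in the Slc1a2 window and 67% in that of Gjb6, against 48.3% in that of Slc1a3 and 50.3% in that of Gja1. A GC box stood once in the Slc1a2 window and 2 times in that of Gjb6, and 33.1% of all 33469 promoter windows held one. The Slc1a3 window held 1 NFI half-site, which 45.8% of promoter windows held. The Gja1 window held none of the 4 motifs, and none of the 4 windows held the SOX motif (11.7% of all windows) or the STAT motif (8.87%). These matches are a description of the letters, and no match overlapped another.

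Between regions, 5 of the 10 genes stood higher in hippocampus of ApoE4 PBS rats and 7 of 10 in ApoE3 PBS rats. In PBS rats, 8 of 10 members passed between hippocampus and cortex in ApoE3 rats, 7 higher and 1 lower (51.0% of all tested genes passed, 27.5% higher and 23.6% lower), by edgeR's quasi-likelihood test at a Benjamini-Hochberg adjusted p under 0.05. In ApoE4 rats 7 of 10 passed, 5 higher and 2 lower (50.4% of all genes, 24.7% higher and 25.7% lower). The members' median log2 change, hippocampus over cortex, was 0.28 in ApoE3 and 0.14 in ApoE4 PBS rats, against 0.020 and 0.00026 over all genes tested. In bulk tissue, more cells of a type and more RNA per cell cannot be told apart.

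Gfap separated the regions most. In ApoE3 PBS rats its lowest, median and highest levels were 977, 1035 and 1393 CPM in hippocampus, against 402, 528 and 692 CPM in cortex. In ApoE4 PBS rats they were 971, 1140 and 1211 CPM in hippocampus and 496, 593 and 673 CPM in cortex. Every hippocampal library stood above every cortical one of its genotype and treatment, and the log2 change was 1.09 (SE 0.11) in ApoE3 rats with an edgeR adjusted p of 1.54e-10. In ApoE4 rats it was 0.92 (SE 0.07), with an edgeR adjusted p of 5.3e-13. Synm, which encodes the intermediate filament partner synemin, was also higher in hippocampus, by 1.10 (SE 0.09) in ApoE3 and 0.94 (SE 0.06) in ApoE4 PBS rats on the log2 scale.

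Slc1a3 and Gja1 showed the same separation at a smaller size. Slc1a3 read 854 to 1115 CPM with a median of 1012 CPM in hippocampus of ApoE3 PBS rats, against 670 to 841 CPM with a median of 712 CPM in their cortex. Its log2 change was 0.45 (SE 0.06) in ApoE3 and 0.36 (SE 0.05) in ApoE4 PBS rats. Gja1 read 584 to 674 CPM with a median of 623 CPM in hippocampus of ApoE3 PBS rats and 360 to 535 CPM with a median of 432 CPM in their cortex. Its change was 0.54 (SE 0.07) in ApoE3 and 0.52 (SE 0.05) in ApoE4 PBS rats. Neither gene had a hippocampal library within the cortical range of its own genotype and treatment.

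Aqp4 and Aldh1l1 were higher in hippocampus of both genotypes and Glul was lower. Aqp4 rose by 0.62 (SE 0.07) in ApoE3 and 0.43 (SE 0.07) in ApoE4 PBS rats, and only in ApoE3 rats were the regions without overlap. Aldh1l1 rose by 0.27 (SE 0.07) in ApoE3 and 0.31 (SE 0.06) in ApoE4 PBS rats. Glul changed by -0.16 (SE 0.05) in ApoE3 and -0.19 (SE 0.05) in ApoE4 PBS rats, with overlapping groups. The counts of members whose regions did not overlap were 4 of 10 in ApoE3 PBS rats (18.1% of all genes), 4 in ApoE3 doxorubicin rats (19.8%), 3 in ApoE4 PBS rats (19.3%) and 3 in ApoE4 doxorubicin rats (21.3%).

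The remaining 4 members had no common regional pattern. Gjb6 was higher in hippocampus of ApoE3 PBS rats, by 0.29 (SE 0.11; edgeR adjusted p = 0.0239), and read -0.13 (SE 0.15; edgeR adjusted p = 0.496) in ApoE4 PBS rats. Slc1a2 read -0.02 (SE 0.18) in ApoE3 PBS rats and was lower in hippocampus of ApoE4 PBS rats, by -0.46 (SE 0.19; edgeR adjusted p = 0.0444). Kcnj10 was higher in hippocampus of ApoE3 PBS rats, by 0.22 (SE 0.09; edgeR adjusted p = 0.0407), and read -0.03 (SE 0.06) in ApoE4 rats. The Kcnj10 call in ApoE3 rats and the Slc1a2 call in ApoE4 rats were both lost under DESeq2, with adjusted p = 0.0541 for Kcnj10 and 0.0676 for Slc1a2, and likewise under another scaling and without the filter on low counts. S100b did not pass, at -0.10 (SE 0.07) in ApoE3 and -0.04 (SE 0.06) in ApoE4 PBS rats.

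In doxorubicin rats, in comparisons added after the values were seen, 8 of 10 members passed between regions in ApoE3 rats (49.6% of all genes) and 6 of 10 in ApoE4 rats (50.1%). Gfap stood higher in hippocampus by 1.19 (SE 0.11) in ApoE3 and 0.89 (SE 0.07) in ApoE4 rats. Gjb6 was lower in hippocampus of ApoE3 doxorubicin rats, by -0.26 (SE 0.11; edgeR adjusted p = 0.0438), where it had been higher in ApoE3 PBS rats. Slc1a2 was lower in hippocampus of ApoE4 doxorubicin rats, by -0.81 (SE 0.19; edgeR adjusted p = 0.0006).

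Among genes that work beside the members, the astrocyte metabolism and identity list had 13 of 16 genes higher in hippocampus of ApoE3 PBS rats and 12 of 16 in ApoE4 PBS rats, with none lower past the threshold in either. Of all genes, 27.5% passed as higher in ApoE3 and 24.7% in ApoE4 PBS rats. Cpe, which encodes carboxypeptidase E, rose by 0.63 (SE 0.04) in ApoE3 and 0.59 (SE 0.03) in ApoE4 rats. Gldc, the glycine decarboxylase gene, rose by 0.47 (SE 0.07) in ApoE3 and 0.46 (SE 0.08) in ApoE4 rats. The list of other astrocyte transporters and channels had 13 of 17 genes higher and 1 lower in ApoE3 rats, and 10 higher and 1 lower in ApoE4 rats. Its lower gene in both was Kcnk1, a leak potassium channel gene, at -1.06 (SE 0.06) in ApoE3 and -0.84 (SE 0.09) in ApoE4 rats. In the aquaporin-4 anchoring complex, Dag1 (dystroglycan) was higher, by 0.28 (SE 0.04) in ApoE3 and 0.23 (SE 0.04) in ApoE4 rats. Agrn (agrin) was lower, at -0.24 (SE 0.05) in ApoE3 and -0.24 (SE 0.04) in ApoE4 rats. Oligodendrocyte markers passed as lower in hippocampus for 8 of 8 genes in ApoE3 rats and 6 of 8 in ApoE4 rats, and meningeal markers passed as higher for 7 of 7 in ApoE3 and 2 of 7 in ApoE4 rats. The part of tissue composition in the regional differences was not tested.

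**Figure D1:**
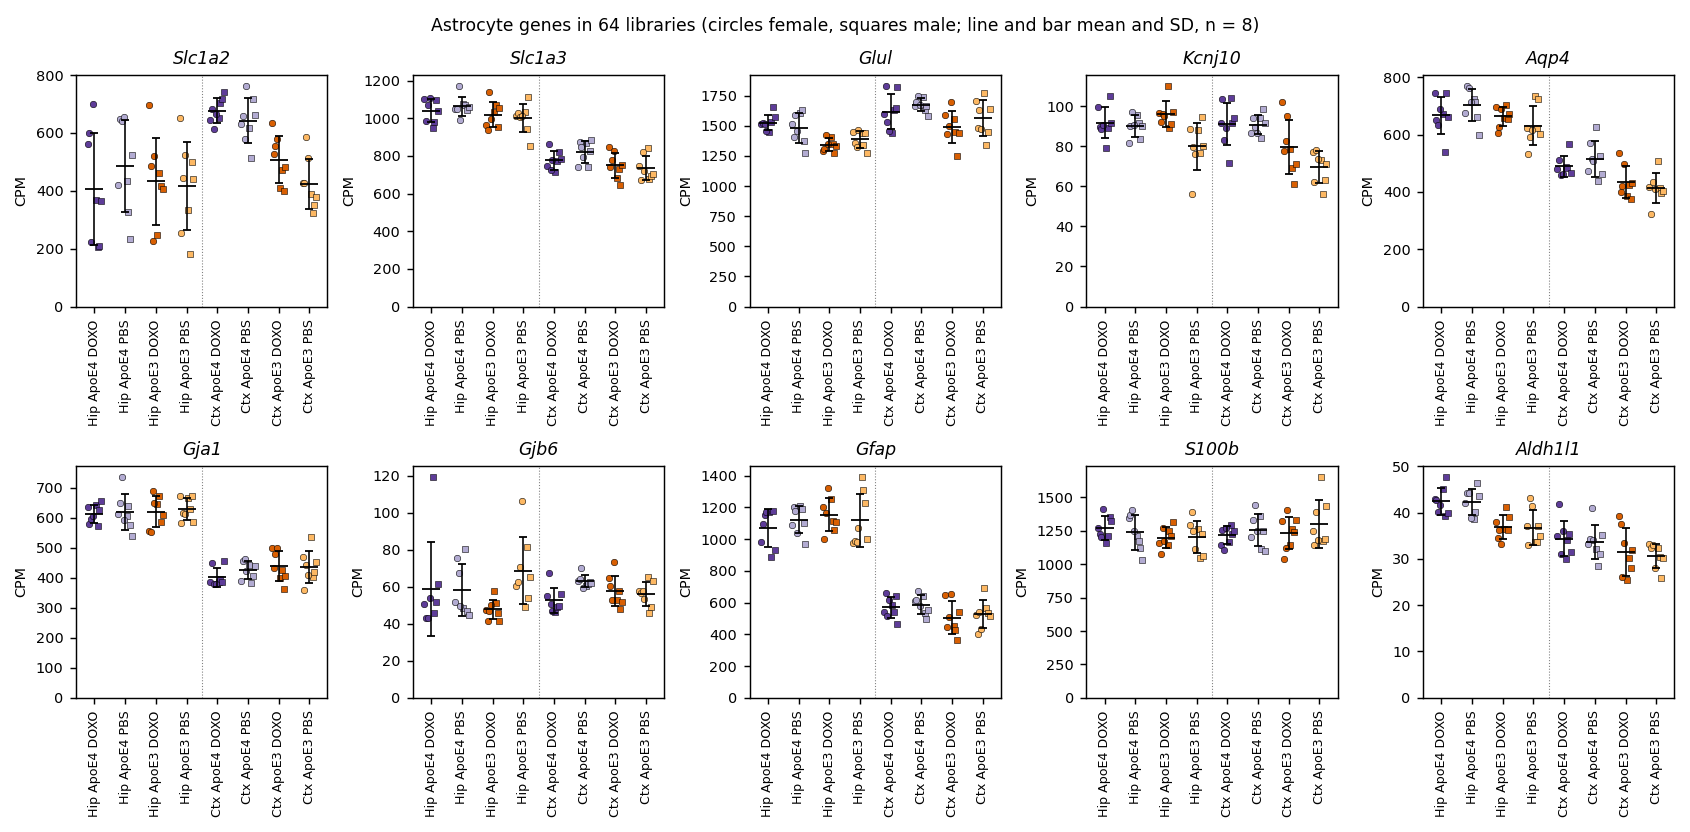
CPM (linear axis from 0) of each of the 10 genes in the 64 libraries, with hippocampal groups left of the dotted line and cortical groups right of it. Points are libraries (circles females, squares males) and lines with bars are the mean and SD of 8 libraries: Gfap, Slc1a3 and Gja1 stand higher in hippocampus, Slc1a2 is spread widely in hippocampus (181 to 702 CPM), and 1 hippocampal ApoE4 doxorubicin library reads 119 CPM for Gjb6.

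Between genotypes, Slc1a2 and 3 other members stood higher in ApoE4 cortex. In PBS rats, 4 of 10 members passed in cortex and all 4 were higher in ApoE4 rats (18.2% of all genes passed, 9.63% higher). These were Slc1a2, Kcnj10, Aqp4 and Slc1a3. Values were above 0 for 8 of 10 members (48.2% of all genes), and the members' median was 0.16 against -0.0072 over all genes tested.

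Slc1a2 had the largest change of the 10. Its lowest, median and highest levels were 512, 645 and 764 CPM in cortex of ApoE4 PBS rats, against 324, 408 and 588 CPM in ApoE3 PBS rats. All 8 ApoE4 libraries stood above the ApoE3 median and 6 above the highest ApoE3 library. Slc1a2 had a log2 change of 0.61 (SE 0.08), a 1.52-fold difference, with an edgeR adjusted p of 2.36e-06. In doxorubicin rats the cortical levels were 613, 675 and 741 CPM in ApoE4 rats, against 399.5, 504 and 635 CPM in ApoE3 rats, and the change was 0.42 (SE 0.08; edgeR adjusted p = 0.000669).

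Kcnj10 was the 1 member whose PBS groups did not overlap in cortex (2.12% of all genes did not). It read 84.2, 90.5 and 98.6 CPM (lowest, median, highest) in ApoE4 PBS rats and 56.2, 72.3 and 78.1 CPM in ApoE3 PBS rats. The log2 change was 0.38 (SE 0.08), a 1.31-fold difference, with an edgeR adjusted p of 0.000524. In doxorubicin rats the groups overlapped, at 71.5 to 104 CPM in ApoE4 and 61.4 to 102 CPM in ApoE3 rats, and the change of 0.19 (SE 0.08) did not pass (edgeR adjusted p = 0.107).

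Aqp4 read 438, 511 and 628 CPM in cortex of ApoE4 PBS rats, against 321, 412 and 510 CPM in ApoE3 PBS rats, a log2 change of 0.31 (SE 0.08; edgeR adjusted p = 0.00348). Slc1a3 read 741, 835 and 885 CPM in ApoE4 PBS rats and 670, 712 and 841 CPM in ApoE3 PBS rats, a change of 0.16 (SE 0.05; edgeR adjusted p = 0.0361). Both pairs of groups overlapped. In doxorubicin rats Aqp4 read 0.16 (SE 0.08) and Slc1a3 0.04 (SE 0.05), and neither passed. Slc1a2 was then the 1 of 10 members to pass in cortex (12.0% of all genes), with no member's groups free of overlap (2.15% of all genes).

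The connexin, filament and identity genes did not pass between genotypes in cortex. In PBS rats Gja1 read -0.04 (SE 0.07), Gjb6 0.16 (SE 0.07), Gfap 0.15 (SE 0.10), S100b -0.05 (SE 0.07), Glul 0.10 (SE 0.06) and Aldh1l1 0.13 (SE 0.07) on the log2 scale. In doxorubicin rats Gja1 read -0.13 (SE 0.07) and Gjb6 -0.14 (SE 0.07).

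Markers of other cells differed between the genotypes in the same cortical libraries. Meningeal fibroblast genes read higher in ApoE4 PBS rats for 7 of 7 genes (5 passed, median log2 change 1.05), and their summed level was 118, 311 and 379 CPM (lowest, median, highest) in ApoE4 PBS rats and 93.2, 130 and 193 CPM in ApoE3 PBS rats. Endothelial genes read higher for 6 of 6 (5 passed, median 0.33), pericyte and smooth muscle genes for 8 of 8 (3 passed, median 0.45) and oligodendrocyte precursor genes for 5 of 5 (4 passed, median 0.28). Microglial genes read lower for 6 of 7 (4 passed lower and 1 higher, median -0.28) and neuronal genes for 7 of 8 (5 passed lower and 1 higher, median -0.16). With the mean of the 7 meningeal genes as a covariate, an alternative added after the values were seen, Slc1a2 read 0.65 (edgeR adjusted p = 1.79e-05), Kcnj10 0.32 (edgeR adjusted p = 0.0168) and Aqp4 0.26 (edgeR adjusted p = 0.0483), while Slc1a3 read 0.11 and lost its call (edgeR adjusted p = 0.274). The part of the other cell types in these differences was not tested.

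Genes that work with the members moved in both directions in ApoE4 PBS cortex, where 18.2% of all genes passed and 9.63% passed as higher. Of the other astrocyte transporters and channels, 3 of 17 were higher and 3 lower. Among them were Slc4a4, a sodium bicarbonate cotransporter gene, at 0.29 (SE 0.07), and Trpm3, a cation channel gene, at 0.28 (SE 0.07). Kcnj16, whose channel subunit pairs with Kir4.1, was lower at -0.61 (SE 0.15), and Slc7a10, a neutral amino acid transporter gene, lower at -0.20 (SE 0.06).

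In this comparison 9.63% of all genes passed as higher. Of the connexin and pannexin family 2 of 10 were higher, Panx2 at 0.21 (SE 0.05) and Gjc3 at 0.34 (SE 0.08). Gjc3 is an oligodendrocyte lineage connexin gene in the mouse. Of the filament partners 3 of 7 were higher: Synm at 0.31 (SE 0.08), Vim, the vimentin gene, at 0.56 (SE 0.16) and Plec, the plectin gene, at 0.10 (SE 0.04). Vim read -0.020 with the meningeal covariate. None of 8 aquaporin-4 anchoring genes passed by edgeR, and 2 were under an unadjusted p of 0.05. Of the metabolism and identity list 3 of 16 passed, beside 18.2% of all genes. Ppp1r3c, a glycogen-targeting phosphatase subunit gene, read -0.41 (SE 0.07). The transcription factor gene Sox9 read 0.33 (SE 0.09) and the glycogen phosphorylase gene Pygb 0.10 (SE 0.03). Of the reactive astrocyte list 3 of 13 were higher: Lcn2 (lipocalin-2) at 1.13 (SE 0.28), Cp (ceruloplasmin) at 0.89 (SE 0.17) and Stat3 at 0.13 (SE 0.04). Meningeal genes read higher for 7 of 7 in the same libraries (median 1.05), and their part in the values of the reactive list was not tested.

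In hippocampus fewer members passed between genotypes. In PBS rats 1 of 10 members passed (3.81% of all genes, 1.93% higher), and the members' median log2 change was 0.092 against -0.00055 over all genes, with 8 of 10 members above 0 (49.8% of all genes). This was Aldh1l1, which read 38.7, 42.8 and 46.3 CPM (lowest, median, highest) in ApoE4 PBS rats, against 32.9, 36.0 and 43.0 CPM in ApoE3 PBS rats. The groups overlapped, and the change was 0.20 (SE 0.06; edgeR adjusted p = 0.0370), with an adjusted p of 0.0546 when no filter on low counts was used. In doxorubicin rats 2 of 10 passed (3.63% of all genes), Aldh1l1 again at 0.20 (SE 0.06; edgeR adjusted p = 0.0409) and Glul at 0.18 (SE 0.04; edgeR adjusted p = 0.00969). Glul read 1450, 1519 and 1654 CPM in ApoE4 doxorubicin rats and 1271, 1342 and 1421 CPM in ApoE3 doxorubicin rats, and it was the 1 member whose groups did not overlap (1.1% of all genes). In PBS rats no member's groups were free of overlap (1.08% of all genes).

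Markers of other cells also differed between the genotypes in hippocampus of PBS rats. Oligodendrocyte genes read higher in ApoE4 PBS rats for 8 of 8 genes (3 passed, median log2 change 0.24), with a median summed level of 8942 CPM in ApoE4 and 7915 CPM in ApoE3 PBS rats. Microglial genes read lower for 6 of 7 (3 passed, median -0.29), with summed levels of 241, 263 and 310.4 CPM (lowest, median, highest) in ApoE4 PBS rats and 280.4, 308 and 336 CPM in ApoE3 PBS rats. Choroid plexus genes read above 0 for 6 of 6 with a median of 2.68 and none passed; their summed levels were 12.3, 121 and 12278 CPM in ApoE4 and 9.23, 76.2 and 3307 CPM in ApoE3 PBS rats. Meningeal genes read below 0 for 6 of 7 (none passed, median -0.41), and with their mean as a covariate Aldh1l1 read 0.21 (edgeR adjusted p = 0.0255). The part of the other cell types in the Aldh1l1 difference was not tested.

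Slc1a2 did not pass between genotypes in hippocampus. It read 235, 480 and 657 CPM in ApoE4 PBS rats and 181, 442 and 652 CPM in ApoE3 PBS rats, ranges that nearly coincide. The change was 0.20 (SE 0.24), with an interval of 2 SE from -0.29 to 0.68. Among the listed genes, Ppp1r3c was lower in hippocampus of ApoE4 PBS rats at -0.39 (SE 0.06), as were Ppp1r3g, another glycogen-targeting subunit gene, at -0.36 (SE 0.10) and Mlc1, a gene of astrocyte endfoot membranes, at -0.20 (SE 0.05).

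**Figure D2:**
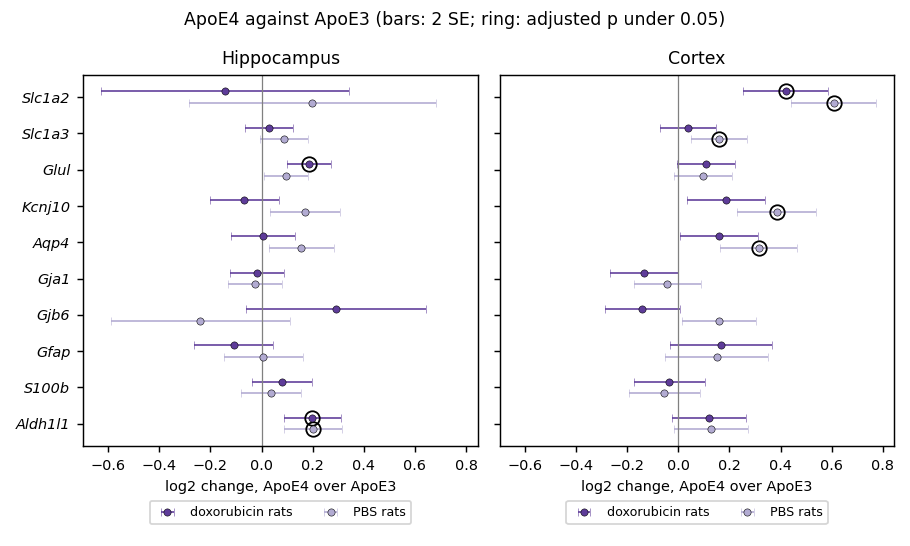
Log2 change of each of the 10 genes, ApoE4 over ApoE3, in hippocampus and cortex, for doxorubicin rats and PBS rats; bars are 2 SE either side, and rings mark an edgeR adjusted p under 0.05. Slc1a2 in cortex lies at 0.42 in doxorubicin rats and 0.61 in PBS rats, and the Slc1a2 bars in hippocampus span 0.

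The submitters' own comparison set doxorubicin against PBS in each region and genotype. No member passed edgeR's test in any of the 4 comparisons, where no gene at all passed: 0 of 14873 in ApoE4 hippocampus (0.0%), 0 of 14899 in ApoE3 hippocampus (0.0%), 0 of 14838 in ApoE4 cortex (0.0%) and 0 of 14775 in ApoE3 cortex (0.0%). At an unadjusted p under 0.05 the members counted 0 of 10 in ApoE4 hippocampus (7.38% of all genes), 2 in ApoE3 hippocampus (10.3%), 1 in ApoE4 cortex (8.82%) and 2 in ApoE3 cortex (9.25%). DESeq2 called 0 members in ApoE4 hippocampus (0.0% of its tested genes), 1 in ApoE3 hippocampus (0.902%), 1 in ApoE4 cortex (0.377%) and 1 in ApoE3 cortex (1.04%). The members' median log2 change was -0.015 in ApoE4 hippocampus, 0.016 in ApoE3 hippocampus, -0.053 in ApoE4 cortex and 0.031 in ApoE3 cortex, against -0.0067, 0.0015, -0.00036 and -0.00039 over all genes. The log2 change was above 0 for 4 members in ApoE4 hippocampus (47.0% of all genes), 6 in ApoE3 hippocampus (50.7%), 3 in ApoE4 cortex (49.8%) and 7 in ApoE3 cortex (49.9%). No member's groups were free of overlap in ApoE4 hippocampus (0.0126% of all genes), ApoE3 hippocampus (0.0189%), ApoE4 cortex (0.0378%) or ApoE3 cortex (0.0378%).

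Gjb6, the connexin 30 gene, had the largest doxorubicin value. In hippocampus of ApoE3 rats its lowest, median and highest levels were 41.4, 47.3 and 57.5 CPM after doxorubicin and 49.1, 63.9 and 107 CPM after PBS. All 8 doxorubicin libraries stood below the PBS median and 5 below the lowest PBS library. The log2 change was -0.52 (SE 0.12) with an edgeR adjusted p of 0.170 and a DESeq2 adjusted p of 0.0123, and the authors' deposited table gives -0.52 with an adjusted p of 0.00958. Without 1 PBS library, rat 61, the change was -0.41.

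Meningeal genes read lower in the same hippocampal doxorubicin libraries, with none past edgeR's adjusted threshold. All 7 read lower in ApoE3 doxorubicin rats (6 at an unadjusted p under 0.05, median log2 change -1.95), and their sum was 67.9, 78.5 and 447 CPM (lowest, median, highest) in doxorubicin rats, against 85.6, 346 and 819 CPM in PBS rats. Values were below 0 for 6 of 6 endothelial genes (median -0.42) and above 0 for 8 of 8 oligodendrocyte genes (median 0.21). Choroid plexus genes read above 0 for 5 of 5 (median 2.12), with 0 at an unadjusted edgeR p under 0.05. Their sum was 5.03, 13.3 and 6292 CPM (lowest, median, highest) in doxorubicin rats and 9.23, 76.2 and 3307 CPM in PBS rats. Rats 51 and 65 gave the highest doxorubicin sums, 6292 and 5193 CPM. The authors' deposited table called the meningeal genes Col1a1, Dcn, Slc6a20 and Slc22a6 as lower. It also called the endothelial genes Cdh5, Tek and Esam and the smooth muscle genes Acta2, Tagln and Myh11 as lower, and the oligodendrocyte gene Opalin as higher. The part of these markers in the Gjb6 value was not tested beyond the covariate. With the meningeal mean as a covariate, the Gjb6 change was -0.19 (SE 0.10; edgeR adjusted p = 0.898). Gjb2, the connexin 26 gene, read -1.33 (SE 0.33; edgeR adjusted p = 0.178) in that comparison, and the authors' deposited table gives it an adjusted p of 0.0259.

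In cortex of ApoE4 rats Gjb6 read 46.5, 50.0 and 67.2 CPM after doxorubicin and 59.4, 62.4 and 70.0 CPM after PBS. Of the 8 doxorubicin libraries 7 stood below the lowest PBS library, and the other was rat 31. The log2 change was -0.26 (SE 0.06) with an edgeR adjusted p of 0.273, a DESeq2 adjusted p of 0.0235 and, in the authors' deposited table, an adjusted p of 0.0419. Without rat 31 the change was -0.32 with an edgeR adjusted p of 0.0177, the smallest when each of the 16 libraries was left out. Over those 16 fits the change ran from -0.32 to -0.23, and the edgeR adjusted p reached 0.566. With the meningeal mean as a covariate the change was -0.20 (SE 0.05). All 7 meningeal genes read lower in these doxorubicin rats, with a median log2 change of -0.40.

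In the other 2 comparisons the Gjb6 values lay near 0. In hippocampus of ApoE4 rats Gjb6 read 43.2, 51.3 and 119 CPM after doxorubicin and 44.9, 50.9 and 80.6 CPM after PBS, a change of -0.02 (SE 0.20) that was -0.22 without the doxorubicin library of rat 10. In cortex of ApoE3 rats it read 47.9, 55.3 and 73.2 CPM after doxorubicin and 45.8, 57.3 and 65.04 CPM after PBS, a change of 0.03 (SE 0.08). Both pairs of groups overlapped over most of their range.

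Kcnj10 read 89.1, 95.6 and 110.3 CPM in hippocampus of ApoE3 doxorubicin rats, against 56.1, 80.0 and 94.7 CPM in ApoE3 PBS rats. All 8 doxorubicin libraries stood above the PBS median and 5 above the highest PBS library. Kcnj10 had a log2 change of 0.26 (SE 0.07), with an edgeR adjusted p of 0.205 and an adjusted p of 0.0675 in the authors' deposited table. In cortex of ApoE3 rats Kcnj10 read 61.4, 78.3 and 102 CPM after doxorubicin and 56.2, 72.3 and 78.1 CPM after PBS, a change of 0.19 (SE 0.07; edgeR adjusted p = 0.432). In ApoE4 rats the changes were 0.02 (SE 0.05) in hippocampus and 0.00 (SE 0.06) in cortex.

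Slc1a2 read 399.5, 504 and 635 CPM in cortex of ApoE3 doxorubicin rats, against 324, 408 and 588 CPM in ApoE3 PBS rats. The groups overlapped, with 7 of 8 doxorubicin libraries above the PBS median. Its change was 0.26 (SE 0.07), with an edgeR adjusted p of 0.181, a DESeq2 adjusted p of 0.0235 and, in the authors' deposited table, an adjusted p of 0.597. In cortex of ApoE4 rats the change was 0.07 (SE 0.06). In hippocampus it was -0.30 (SE 0.22) in ApoE4 and 0.06 (SE 0.23) in ApoE3 rats.

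The other 7 members had small values and none passed. Slc1a3, Glul, Aqp4, Gja1, Gfap, S100b and Aldh1l1 all read between -0.09 and 0.07 in each of the 4 comparisons, with SEs of 0.04 to 0.11. Gfap, whose rise marks reactive astrocytes, read -0.07 (SE 0.07) in ApoE4 hippocampus, 0.05 (SE 0.08) in ApoE3 hippocampus, -0.04 (SE 0.06) in ApoE4 cortex and -0.06 (SE 0.11) in ApoE3 cortex. The interval of 2 SE for Gfap in ApoE3 hippocampus ran from -0.10 to 0.20. With the meningeal mean as a covariate, values in ApoE3 cortex were -0.21 (SE 0.11; edgeR adjusted p = 0.642) for Gfap, -0.135 (SE 0.08) for S100b and -0.12 (SE 0.06) for Glul. The other values of the 7 members with this covariate lay between -0.11 and 0.06, and none passed.

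No gene passed edgeR's test, so none of the listed partner genes did. The authors' deposited table called 0.991% of its genes in ApoE3 hippocampus, among them Cp, with an adjusted p of 0.0392. In ApoE3 hippocampus the reactive astrocyte list had 10 of 12 genes with values below 0 (5 at an unadjusted edgeR p under 0.05, median -0.29). The list was led by Cp at -1.42 (SE 0.37). Of all genes, 50.7% read above 0 and 10.3% were under an unadjusted edgeR p of 0.05. Meningeal genes also read lower there for 7 of 7 (median -1.95), and their part in the values of the reactive list was not tested. In the same comparison Vim read -1.01 (SE 0.33) and Des, the desmin gene, -1.23 (SE 0.36), and both read above 0 with the meningeal covariate, at 0.25 for Vim and 0.045 for Des. The metabolism and identity list had 15 of 16 genes with values below 0 in ApoE4 cortex (4 at an unadjusted edgeR p under 0.05, median -0.063), with Ndrg2 at -0.13 (SE 0.05). Of all genes, 49.8% read above 0 and 8.82% were under that p. The list had 11 below 0 in ApoE4 hippocampus, 6 in ApoE3 hippocampus and 11 in ApoE3 cortex. In ApoE4 cortex 8 of 8 oligodendrocyte, 6 of 6 endothelial and 7 of 7 meningeal genes also read below 0, and 7 of 8 neuronal genes above 0. The part of tissue composition was not tested.

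**Figure D3:**
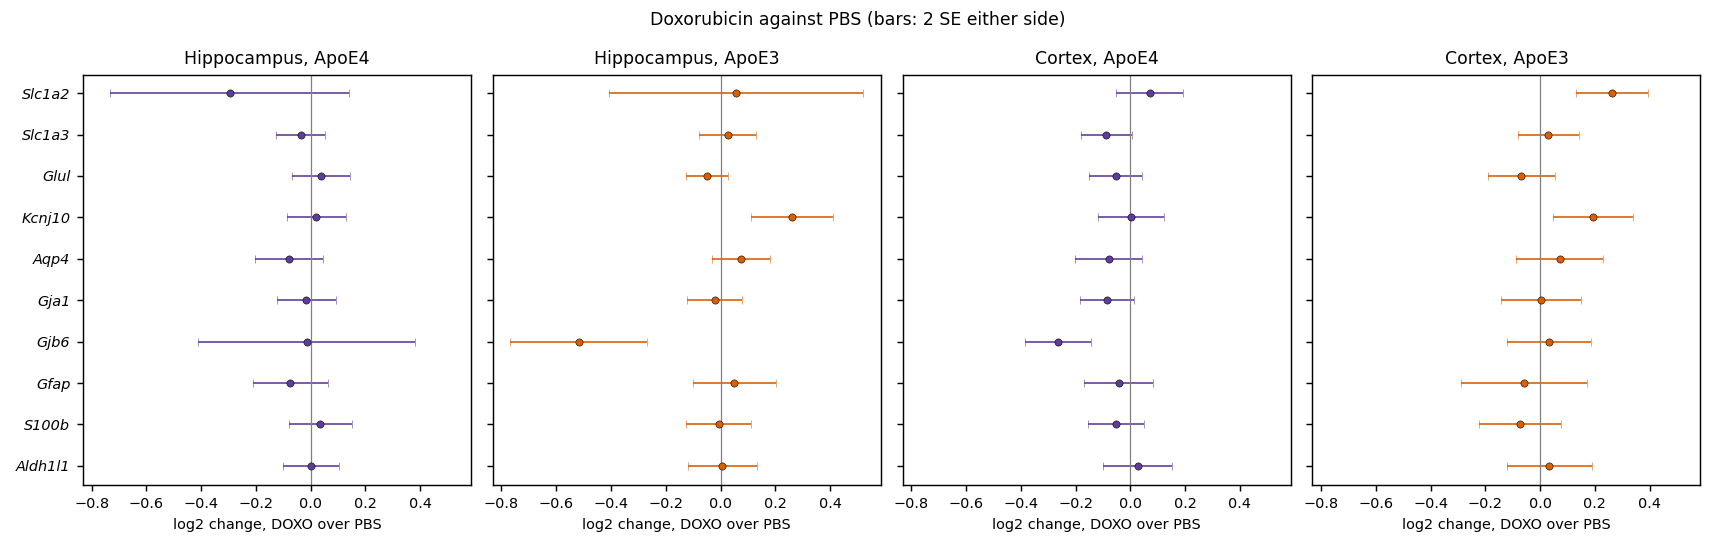
Log2 change of each of the 10 genes, doxorubicin over PBS, in the 4 pairs of region and genotype, with bars of 2 SE either side. Gjb6 lies at -0.52 in ApoE3 hippocampus and -0.26 in ApoE4 cortex, Kcnj10 at 0.26 in ApoE3 hippocampus and Slc1a2 at 0.26 in ApoE3 cortex, and the remaining bars other than Kcnj10 in ApoE3 cortex reach 0.

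The differences between these doxorubicin values were tested as interaction terms, and no member passed. For genotype, ApoE4 minus ApoE3, edgeR called 0 of 10 members in hippocampus (0.0% of all genes) and 0 in cortex (0.0%), with 2 members in hippocampus (8.18% of all genes) and 1 in cortex (5.45%) at an unadjusted p under 0.05. DESeq2 called 0 members in hippocampus (0.012% of its genes) and 0 in cortex (0.00394%). Gjb6 read 0.53 (SE 0.25; edgeR adjusted p = 0.592) in hippocampus and -0.30 (SE 0.10; edgeR adjusted p = 0.879) in cortex. Kcnj10 read -0.24 (SE 0.10; edgeR adjusted p = 0.553) in hippocampus.

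For region, hippocampus minus cortex, edgeR called 0 members in ApoE4 rats (0.0% of all genes) and 0 in ApoE3 rats (0.0%), with 0 in ApoE4 (3.59%) and 1 in ApoE3 rats (8.0%) at an unadjusted p under 0.05. The 1 was Gjb6, at -0.55 (SE 0.15; edgeR adjusted p = 0.110) in ApoE3 rats, which DESeq2 called with an adjusted p of 0.0489 (0.72% of its genes). In ApoE4 rats Gjb6 read 0.27 (SE 0.22), and DESeq2 called 0 members (0.0%).

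Sex entered every model, and 1 member differed by it. In cortex of ApoE3 rats Slc1a2 was higher in females by 0.40 (SE 0.07; edgeR adjusted p = 0.00374), in a comparison added after the values were seen, and it was the 1 of 10 members to pass (0.562% of all genes). Females read 526 to 635 CPM and males 399.5 to 482 CPM after doxorubicin, and after PBS females read 425 to 588 CPM and males 324 to 390 CPM. No female library fell within the male range of its treatment, and the share of all genes separated in this way was not counted. In cortex of ApoE4 rats the Slc1a2 value was -0.02 (SE 0.06), and in hippocampus it was 0.76 (SE 0.22; edgeR adjusted p = 0.218) in ApoE4 and 0.35 (SE 0.23) in ApoE3 rats. edgeR called 0 of 10 members between sexes in ApoE4 hippocampus (0.121% of all genes), ApoE3 hippocampus (0.0873%) and ApoE4 cortex (0.108%), with 2 (10.7% of all genes), 1 (5.04%) and 1 (6.76%) at an unadjusted p under 0.05. DESeq2 was not run on the comparisons between sexes, that of ApoE3 cortex included.

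The doxorubicin change itself was tested for a difference between females and males, and no member passed in ApoE3 cortex (2.34% of all genes), ApoE4 cortex (0.00652%), ApoE3 hippocampus (0.0%) or ApoE4 hippocampus (0.0%). In ApoE3 cortex 3 members were under an unadjusted p of 0.05 (19.2% of all genes). Gfap averaged 565 CPM after doxorubicin and 474 CPM after PBS in females, and 446 CPM after doxorubicin and 578 CPM after PBS in males. The female minus male change was 0.64 (SE 0.18; edgeR adjusted p = 0.0588) for Gfap, 0.38 (SE 0.12; edgeR adjusted p = 0.0867) for Gja1 and 0.33 (SE 0.14; edgeR adjusted p = 0.185) for Aqp4. Without the filter on low counts both Gfap (adjusted p = 0.00169) and Gja1 (0.0237) passed (2.6% of all genes), and DESeq2 called Gja1 (adjusted p = 0.0433; 6.1% of its genes). Values were also above 0 for 6 of 7 meningeal (median 0.73), 7 of 8 pericyte and smooth muscle (0.53, 2 passed), 6 of 6 endothelial (0.37) and 7 of 7 microglial genes (0.32). They were below 0 for 6 of 8 neuronal (-0.10) and 6 of 8 oligodendrocyte genes (-0.11). The part of these markers in the members' values was not tested. In ApoE4 cortex 0 members were under an unadjusted p of 0.05 (5.84%), in ApoE3 hippocampus 2 (4.5%) and in ApoE4 hippocampus 1 (3.53%), and DESeq2 called 0 in each (0.152%, 0.0% and 0.00418% of its genes).

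Within groups, many pairs of the 10 genes varied together, in both regions. Residuals of log2 CPM were taken from the mean of each set of rats of 1 genotype, treatment and sex, over 32 rats per region. Of the 45 pairs of members, 36 correlated positively in hippocampus (49.6% of all pairs of genes) and 17 passed a permutation test (100000 draws, Benjamini-Hochberg over the 45 pairs), with a median Pearson r of 0.30 against -0.0023 over all pairs. The lowest r of a pair that passed was 0.41, and 6.03% of all pairs of genes reached it. In cortex 45 were positive (49.9% of all pairs) and 37 passed, with a median r of 0.56 against -0.00090 over all pairs, and 6.68% of all pairs reached the lowest passing r of 0.37. The draws shuffled all 32 residuals freely and ignored that they were centred within sets of rats. All permutation p-values given here are therefore too small, and calls near the threshold are uncertain. The pairs share genes, libraries and scaling, and the part of tissue composition in these correlations was not tested. The regions were not tested against each other. The closest pair that was high in both regions was Slc1a3 and Gja1, with r = 0.70 (rho = 0.67, permutation adjusted p = 0.00045 for r) in hippocampus and r = 0.84 (rho = 0.83, permutation adjusted p = 5.62e-05) in cortex. Leaving out the 2 rats farthest from the Slc1a3 median gave r = 0.68 in hippocampus and 0.80 in cortex.

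The 2 connexin genes, Gja1 and Gjb6, passed as a pair in cortex. Gja1 and Gjb6 had r = 0.34 (rho = 0.35, permutation adjusted p = 0.125 for r) in hippocampus and r = 0.66 (rho = 0.68, permutation adjusted p = 0.00021) in cortex, and without the 2 farthest rats r was 0.27 in hippocampus and 0.58 in cortex. Gjb6 and Glul had r = 0.04 in hippocampus (rho = -0.03, permutation adjusted p = 0.883 for r) and 0.83 in cortex (rho = 0.84, permutation adjusted p = 5.62e-05). The genes most like the members' mean were Pgm3 (r = 0.85), Ptprz1 (0.81), Slc4a4 (0.79), Tjp1 (0.78) and Myo6 (0.77) in hippocampus. In cortex they were Mlc1 (r = 0.93), Kif1c (0.90), Mt-cyb (0.90), Lgi4 (0.88) and Tns3 (0.88). These were picked from 10653 genes for their r, over 32 libraries that share the scaling, and are given as a description.

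Slc1a2 had a larger coefficient of variation in hippocampus than in cortex in each of the 4 groups of rats. Over the 32 hippocampal libraries it ranged 3.87-fold, from 181 to 702 CPM, and its coefficient of variation was 48.0% in ApoE4 doxorubicin, 32.7% in ApoE4 PBS, 35.0% in ApoE3 doxorubicin and 36.8% in ApoE3 PBS rats. In cortex these values were 6.24%, 12.2%, 16.2% and 20.5% for the same rats. The genes whose residuals were most like those of Slc1a2 in hippocampus were Mib1 (r = 0.97), Zfp106 (0.96), Psd3 (0.96), Kcnq3 (0.96), Prex2 (0.96), Dok6 (0.96) and Cbl (0.95). Mib1 and Cbl encode ubiquitin ligases and Kcnq3 a neuronal potassium channel subunit. Which cells gave the transcripts of the 7 genes was not tested. In cortex the r with Slc1a2 ran from 0.05 for Kcnq3 and 0.38 for Cbl to 0.83 for Zfp106. Of the other 9 members, none passed with Slc1a2 in hippocampus, where the highest r was 0.39 for Aqp4 (rho = 0.34, permutation adjusted p = 0.0659 for r). In cortex 5 passed with it, Slc1a3 (r = 0.63), Kcnj10 (0.55), Aqp4 (0.51), S100b (0.47) and Gja1 (0.44), with rho from 0.47 to 0.64, permutation adjusted p from 0.000426 to 0.0158 for r, and r from 0.38 to 0.53 without the 2 farthest rats.

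These 7 genes, chosen after the values were seen, were also higher in cortex of ApoE4 PBS rats than of ApoE3 PBS rats. All 7 passed edgeR's test there (9.63% of all genes passed as higher), with log2 changes from 0.25 for Kcnq3 to 0.58 for Psd3 and a median of 0.35, beside the 0.61 of Slc1a2. The 7 were picked for varying alike in hippocampus, so they do not count as 7 separate observations. In hippocampus of PBS rats 7 of 7 read above 0 between genotypes (49.8% of all genes) and 0 passed edgeR's test. Between regions all 7 were lower in hippocampus and passed in both genotypes, with a median of -0.71 in ApoE4 and -0.52 in ApoE3 PBS rats. Of all genes, 25.7% passed as lower in ApoE4 and 23.6% in ApoE3 PBS rats. RNA quality values were not analysed here, and the part of library quality in this shared variation was not tested.

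**Figure D4:**
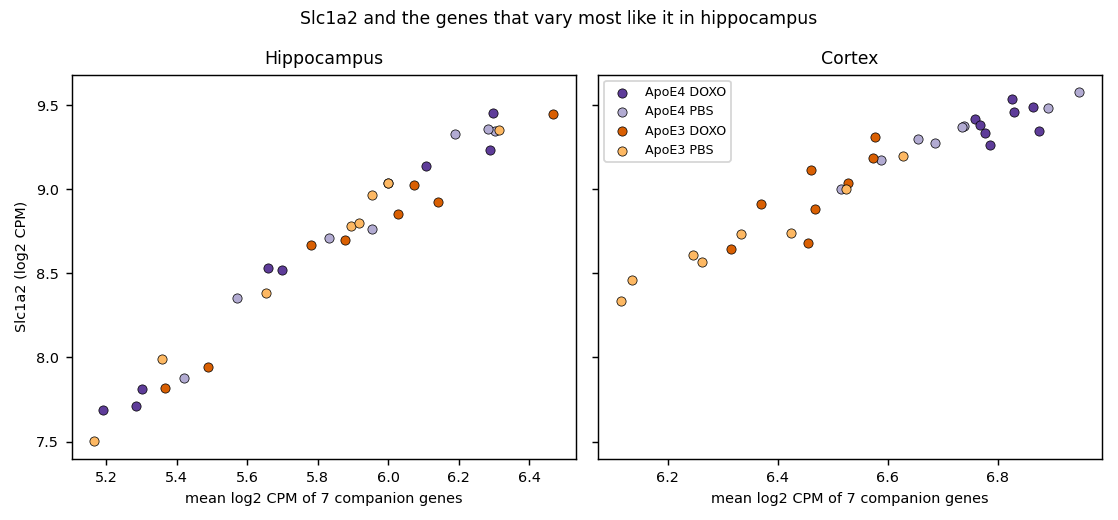
Slc1a2 (log2 CPM) against the mean log2 CPM of the 7 genes most like it in hippocampus, for 32 hippocampal and 32 cortical libraries coloured by group. In hippocampus the libraries lie along a line with all 4 groups spread over it, and in cortex ApoE4 libraries lie towards the upper right.

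Gjb6 followed meningeal genes in hippocampus. Its residuals and those of the mean of 7 meningeal fibroblast genes had r = 0.82 over 32 rats (rho = 0.70, permutation adjusted p = 0.0002 for r over 20 relations, from an unadjusted 1e-05, the smallest that 100000 draws can give). Leaving out the 2 rats farthest from the median meningeal score gave r = 0.71. In cortex r was 0.53 (rho = 0.43, permutation adjusted p = 0.0176 for r and 0.0955 for rho), and it was 0.34 without the 2 farthest rats, so the cortical relation rests in part on them. These p-values are too small, as the draws ignored the centring of the residuals. The highest hippocampal libraries for Gjb6, 119 CPM in rat 10 (ApoE4 doxorubicin) and 107 CPM in rat 61 (ApoE3 PBS), also had the highest meningeal scores, 6.96 and 6.29 as mean log2 CPM.

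Of the other members, S100b alone passed against the meningeal score in hippocampus, in the opposite direction, with r = -0.51 (rho = -0.49, permutation adjusted p = 0.0176) and r = -0.54 without the 2 farthest rats. Its p-value is too small for the same reason, so this call is uncertain. In cortex none of the other 9 passed, and r ran from -0.28 for Slc1a2 to 0.35 for Aldh1l1 among them. Gja1, the other connexin gene, had r = -0.12 in hippocampus (rho = -0.19, permutation adjusted p = 0.667) and 0.13 in cortex (rho = 0.04, permutation adjusted p = 0.667). Rbp4, Clec2g, Ppfibp1, Slc7a11 and Colec12 were the genes most like Gjb6 in hippocampus, with r from 0.93 to 0.91, and Glul, Fzd9 and Epas1 led in cortex.

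**Figure D5:**
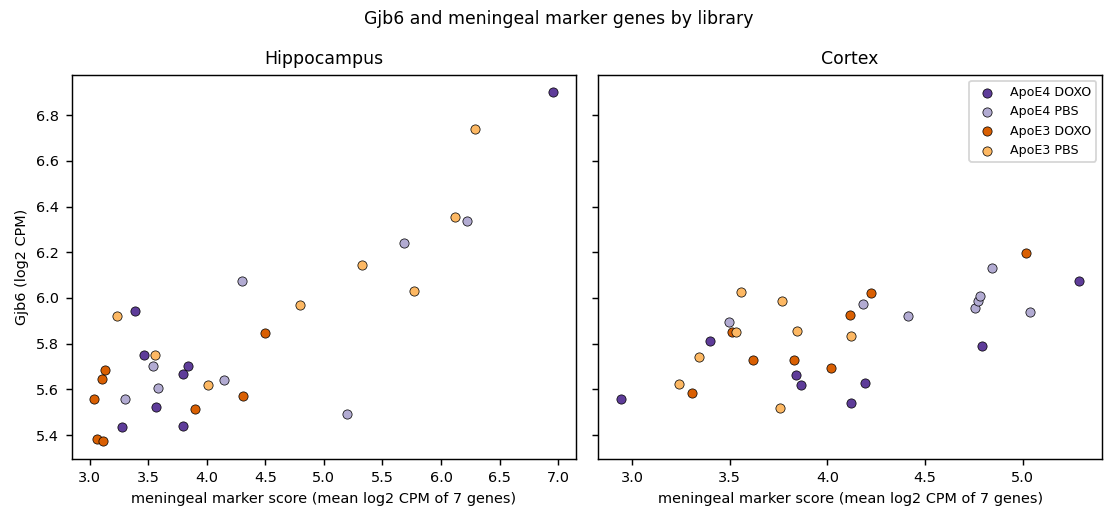
Gjb6 (log2 CPM) against the mean log2 CPM of 7 meningeal fibroblast genes, 1 point per library, in hippocampus and cortex. Hippocampal libraries with the highest meningeal scores, up to 6.96, also have the highest Gjb6, and all 8 hippocampal ApoE3 doxorubicin points lie at scores under 4.50.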

How the data were processed

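RNA from hippocampus and cortex of 32 rats was sequenced in 64 libraries, 8 per group, each from a different rat within its region per the labels. RNA was extracted with a Qiagen RNeasy kit and libraries made with the NEBNext Ultra II RNA kit, per the labels' protocols. The authors deposited raw read counts per gene. STAR 2.5.2b and DESeq2 (version not given) are named in the submitters' processing notes; the read counter, genome build and strandedness are not given in the sources used here. The authors' comparison tables give log2 fold changes, p-values and adjusted p-values per gene, and size-factor normalized signal per library, which the authors made and which was not tested here; the rows in those tables have a total of at least 161 counts.

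From the counts, 92 spike-in rows were dropped from 32644 IDs, and 0 columns could not be mapped to a sample. CPM was scaled by TMM over all 64 libraries, and log2 CPM used a prior count of 1. The tests were edgeR's quasi-likelihood F test (edgeR 4.0.16, limma 3.58.1, R 4.3.3) after filterByExpr, with sex as covariate and Benjamini-Hochberg adjustment over all genes tested at 0.05. Standard errors were derived as the size of the log2 change over the root of its F statistic. Each doxorubicin test was fitted on the 16 libraries of each pair, genotype on the 32 of a region and region on the 32 of a genotype. Correlations, permutations and figures used Python 3.11.15, numpy 2.4.6 and matplotlib 3.10.9. Scripts were tested on simulated data. Totals limit the precision of low genes, and p-values of tests within a region measure the spread between rats. The region tests treated the hippocampal and cortical library of a rat as independent, except in the alternative with the rat as a replicate block.

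The 10 genes and the companion lists were chosen with earlier results of these data known. All 10 are named; of each other list, the genes that passed are named, at most the 4 of smallest p, and otherwise the 2 of smallest p. The genes similar to Slc1a2 and the comparisons in doxorubicin rats, between sexes and with the meningeal covariate were added after values were seen. Results for a few listed genes are not reported here. Alternatives were another scaling (RLE), no filter, DESeq2 1.42.0, no sex covariate, 1 fit per region, the rat as a replicate block and leaving out each library. The labels give the same rat for its hippocampal and cortical library. The correlation of a rat's deviations between regions had a median of 0.186 in ApoE4 rats (0.000822 to 0.278) and 0.118 in ApoE3 rats (-0.0482 to 0.248).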

Additional observations from a re-analysis of the deposited data

Results flagged for a closer look

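Among the 80 sets of 8 libraries (10 genes in 8 groups), 5 had a highest library far from its neighbour by Dixon's ratio, and chance flags about 1 in 20 such sets. Gjb6 read 119 CPM in hippocampus of ApoE4 doxorubicin rat 10, where the next library read 61.5 CPM. Kcnj10 read 110.3 CPM in hippocampus of ApoE3 doxorubicin rat 47, with the next at 96.9 CPM. Gjb6 read 67.2 CPM in cortex of ApoE4 doxorubicin rat 31, with the next at 56.0 CPM, and 70.0 CPM in cortex of ApoE4 PBS rat 24, with the next at 64.4 CPM. Slc1a3 read 1174 CPM in hippocampus of ApoE4 PBS rat 24, with the next at 1076 CPM.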

How the results depend on the processing

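Of the 4 doxorubicin comparisons, edgeR's counts of 0 genes became 153 in ApoE3 hippocampus, 33 in ApoE4 cortex and 81 in ApoE3 cortex under DESeq2, with 1 member each. Without the filter they were 4 in ApoE4 and 7 in ApoE3 cortex; ApoE3 cortex gave 4 with the meningeal covariate and 10 in 1 fit of 32 libraries. DESeq2 called 3 genes for genotype by treatment in hippocampus and 1 in cortex, 129 for region by treatment in ApoE3 rats (1 member; 40 genes without the filter), and for sex by treatment 1 in ApoE4 hippocampus, 19 in ApoE4 cortex (16 without the filter) and 762 in ApoE3 cortex (1 member; 631 genes and 2 members without the filter). ApoE4 over ApoE3 in PBS cortex gave 1684 genes with the meningeal covariate, against 2788, and in PBS hippocampus 0 members without the filter, against 1. The causes were not tested.

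With the rat as a replicate block, region by treatment in ApoE3 rats gave 9 genes, against 0, and no member's call changed; Aqp4 read 0.00086 there in ApoE3 rats (region by treatment E3 Aqp4) and -0.0028 in ApoE4 rats (region by treatment E4 Aqp4).

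Directions turned mainly for values near 0, apart from Vim and Des (below, HPC is hippocampus, CE cortex, E4 and E3 the genotypes and DOXO doxorubicin). Without the covariate, Des read -1.23 and Vim -1.01 in DOXO vs PBS HPC E3, and Vim 0.56 in E4 vs E3 PBS CE. With the meningeal covariate, DOXO vs PBS HPC E3 Slc1a2 read -0.099, DOXO vs PBS HPC E3 Slc1a3 -0.048, DOXO vs PBS HPC E3 Slc1a1 -0.0054, DOXO vs PBS HPC E3 Des 0.045, DOXO vs PBS HPC E3 Vim 0.25, DOXO vs PBS HPC E4 Gjb6 0.11, DOXO vs PBS CE E3 Slc1a3 -0.00033, DOXO vs PBS CE E3 Gjb6 -0.061, DOXO vs PBS CE E3 Gja1 -0.047, DOXO vs PBS CE E3 Aldh1l1 -0.041 and E4 vs E3 PBS CE Vim -0.020. DOXO vs PBS HPC E4 Gjb6 read 0.0057 without sex and 0.0057 in 1 fit, and DOXO vs PBS CE E4 Kcnj10 -0.0014 in 1 fit. Without the filter, genotype by treatment CE Aldh1l1 read 0.0034, region by treatment E3 Slc1a3 0.020 and region by treatment E3 Aqp4 0.021; the last pair read 0.0050 and 0.0063 under RLE, and 0.0053 and 0.0065 under DESeq2.

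Leaving out each library gave 0 to 2 genes in ApoE3 cortex and 0 to 1 genes and 0 to 1 members in ApoE4 cortex. The doxorubicin ranges that crossed 0 were, in CE E3, Aldh1l1 -0.0084 to 0.079, Gfap -0.12 to 0.012, Gja1 -0.043 to 0.060 and Gjb6 -0.014 to 0.083; in CE E4, Aldh1l1 -0.011 to 0.063 and Kcnj10 -0.032 to 0.047; in HPC E3, Aldh1l1 -0.021 to 0.042, S100b -0.035 to 0.025, Slc1a2 -0.052 to 0.17 and Slc1a3 -0.0061 to 0.053; and in HPC E4, Aldh1l1 -0.022 to 0.024, Gja1 -0.036 to 0.025, Gjb6 -0.22 to 0.070 and Kcnj10 -0.0084 to 0.054.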
